A study of Mus musculus with 20 samples.

Results

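The 35 genes described here encode the enzymes that take glucose to pyruvate and lactate, the carriers and enzymes that bring pyruvate into mitochondrial metabolism, and the enzymes that store and release glycogen. They were taken from a list of symbols that was drawn up with earlier results of these data known. All 35 were found among the 57126 gene identifiers counted in mouse hippocampus. The 20 mice were male C57BL/6 animals, each without adrenal glands from about 2.5 months of age, in 4 groups of 5. The groups were homozygous GRA knockin mice given dexamethasone (Dex, a synthetic glucocorticoid, 1 mg per kg into the peritoneum), knockin mice given phosphate-buffered saline (PBS), wild-type mice given the same dose of Dex, and wild-type mice given PBS. The injection came 2 weeks after surgery and the hippocampus was taken 6 h after it. The knockin allele replaces exon 2 of Nr3c1, the glucocorticoid receptor gene, with a copy that keeps the start codon of the full-length receptor, GRA, and carries changed start codons for the 7 shorter forms. Knockin animals therefore make GRA without the shorter forms. Because every animal was adrenalectomized, the PBS groups are animals without their main source of glucocorticoid, not intact controls.

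Glycolysis splits glucose into pyruvate, and brain tissue depends on it for energy and for the exchange of lactate between astrocytes and neurons. Its pace is set mainly at hexokinase and phosphofructokinase, and the fate of pyruvate is set by the pyruvate dehydrogenase complex, which pyruvate dehydrogenase kinases switch off. Glycogen, the brain's small store of glucose, lies mostly in astrocytes and is broken down by glycogen phosphorylase. In muscle and liver, glucocorticoids are known to raise Pdk4 and to shift fuel use away from glucose.

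The libraries held 11493014 to 48267708 read pairs assigned to genes, and all 35 genes passed the filter on low counts that left 18648 genes for testing. The lowest count of any of them in any library was 95 read pairs, for Hk2. Levels are given as CPM, counts scaled for library size, and, where genes are compared with each other, as TPM, which also divides by gene length. A gene is said to have risen or fallen where its p-value from the edgeR quasi-likelihood test, adjusted over the 18648 genes, was below 0.05. Nr3c1 itself stood at 111 ± 8.69 CPM in knockin Dex, 163 ± 24.1 in knockin PBS, 98.6 ± 8.27 in wild-type Dex and 136 ± 21.8 in wild-type PBS libraries (SD, n = 5 each). Counts over the whole gene do not read the mutated start codons, so they do not check the genotype. The tissue is a bulk sample, in which fewer cells of a type and less RNA per cell cannot be told apart.

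The genes whose level differed most between Dex and PBS, among those that passed the test in the average of both genotypes, were Pygm, Pdk4, Pdk2 and Pygb. Their promoters are shown because these members had the largest changes of the set. RefSeq (GRCm38.p6) gives the stretches from 250 bases before to 50 bases after each annotated start, here on the coding strand and 5′ to 3′, with any ACGTG or its reverse complement CACGT in capitals. That letter run is the core of the hypoxia response element, known from glycolytic genes.
Pygm (chr19:6384158-6384457, plus strand): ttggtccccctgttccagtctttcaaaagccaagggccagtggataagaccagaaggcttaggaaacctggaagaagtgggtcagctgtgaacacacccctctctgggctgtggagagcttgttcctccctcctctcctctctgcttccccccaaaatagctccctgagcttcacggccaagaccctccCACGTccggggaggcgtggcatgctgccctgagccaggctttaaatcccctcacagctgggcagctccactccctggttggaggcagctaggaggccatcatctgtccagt
Pdk4 (chr6:5496229-5496528, minus strand): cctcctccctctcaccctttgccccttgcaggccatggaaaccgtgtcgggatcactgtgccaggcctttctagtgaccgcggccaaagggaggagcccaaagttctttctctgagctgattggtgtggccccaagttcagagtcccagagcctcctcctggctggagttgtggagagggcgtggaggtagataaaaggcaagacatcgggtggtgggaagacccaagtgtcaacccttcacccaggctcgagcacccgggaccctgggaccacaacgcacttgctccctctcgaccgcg
Pdk2, first start site (chr11:95041322-95041621, minus strand): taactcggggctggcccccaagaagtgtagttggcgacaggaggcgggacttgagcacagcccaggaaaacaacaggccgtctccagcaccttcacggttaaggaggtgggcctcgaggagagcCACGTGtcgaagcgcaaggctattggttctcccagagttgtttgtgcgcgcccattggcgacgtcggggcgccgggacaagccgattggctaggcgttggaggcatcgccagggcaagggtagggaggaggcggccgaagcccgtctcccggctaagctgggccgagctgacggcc
Pdk2, second start site (chr11:95040826-95041125, minus strand): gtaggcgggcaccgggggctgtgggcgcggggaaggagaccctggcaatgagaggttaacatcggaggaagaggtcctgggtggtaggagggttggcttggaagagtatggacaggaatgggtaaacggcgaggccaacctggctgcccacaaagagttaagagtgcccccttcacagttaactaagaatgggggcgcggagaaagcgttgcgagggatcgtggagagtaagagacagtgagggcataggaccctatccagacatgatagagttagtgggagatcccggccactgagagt
Pygb (chr2:150786546-150786845, plus strand): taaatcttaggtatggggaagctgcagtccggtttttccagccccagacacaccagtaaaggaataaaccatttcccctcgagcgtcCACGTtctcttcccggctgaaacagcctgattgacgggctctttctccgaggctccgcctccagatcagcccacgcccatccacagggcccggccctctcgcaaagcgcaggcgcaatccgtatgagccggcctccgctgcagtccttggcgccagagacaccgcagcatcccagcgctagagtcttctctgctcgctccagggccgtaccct

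Pygm and Pygb each held the run once, the first Pdk2 start held it as CACGTG, which counts as 2 overlapping matches, and Pdk4 and the second Pdk2 start held none. The core of the glucocorticoid response element, ACANNNTGT, and its single repeat AGAACA, both searched on both strands, matched in none of these 5 promoters. Over all 32851 promoters in the table, 6.85% held ACANNNTGT, 19% held AGAACA and 19.6% held ACGTG. Of the 51 promoters of the enzyme genes, which cover 34 of the 35 (Pdp1 had no entry), 1.96% held ACANNNTGT (Mpc1), 17.6% held AGAACA and 43.1% held ACGTG. The ACGTG promoters belonged to 18 genes, among them Hk1, Hk2, Aldoa, Gapdh, Pgk1, Pgam1, Pkm and Ldha. These matches describe letters in a 300-base window and say nothing of binding elsewhere.

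The enzymes differed far more in level from each other than any of them did between groups. Aldoa, the muscle-type aldolase that splits fructose bisphosphate, had the highest mean level over the 20 libraries, 2418 TPM, with 2289 to 2538 TPM in single libraries. It was followed by Pkm (pyruvate kinase) at 951 TPM, the neuronal enolase Eno2 at 824 TPM, Tpi1 (triosephosphate isomerase) at 753 TPM and Ldhb at 462 TPM. These trunk enzymes of glycolysis were thus the abundant members. At the other end stood Hk2, the inducible hexokinase, at 4.46 TPM, then Pfkfb4 at 9.41 TPM, Gys1 (glycogen synthase) at 13.9 TPM, Pdk4 at 14.2 TPM and Pfkfb2 at 14.5 TPM. The spread between mice of a group, as the coefficient of variation of CPM, was smallest for Pfkm at 1.65% and largest for Pdk4 at 15.2% and Hk2 at 13.0%. The members were spread over 15 chromosomes, with 6 on chromosome 6 and 4 on the X chromosome.

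**Figure D1:**
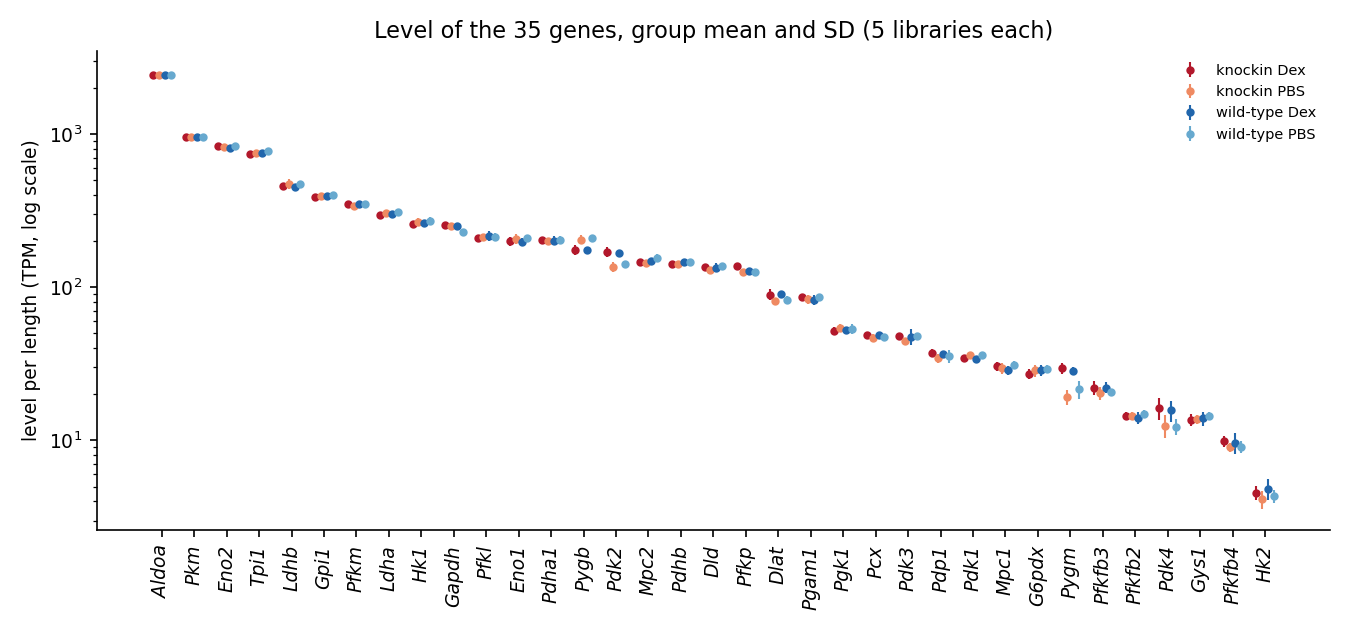
Level per gene length (TPM, log axis) of the 35 genes, ordered by their mean over all libraries, as group mean and SD over 5 libraries. The 4 groups nearly coincide for most genes, from Aldoa near 2418 TPM to Hk2 near 4.46 TPM, while Pygm, Pdk2 and Pdk4 are higher in the Dex groups.

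In each of these families a single isoenzyme led. Hk1 made up nearly all hexokinase messenger of the pair, since Hk2 held 1.73% ± 0.134 of Hk1 and Hk2 in knockin Dex, 1.51% ± 0.18 in knockin PBS, 1.8% ± 0.253 in wild-type Dex and 1.57% ± 0.153 in wild-type PBS libraries (TPM, SD, n = 5 each). Pfkm, the muscle-type phosphofructokinase, held 50.3% ± 0.395 of the 3 phosphofructokinases in knockin Dex, 50.1% ± 0.648 in knockin PBS, 50.2% ± 1.17 in wild-type Dex and 51% ± 1 in wild-type PBS libraries. Eno2 held 80.6% of the enolase pair in knockin Dex, 79.9% in knockin PBS, 80.4% in wild-type Dex and 79.8% in wild-type PBS libraries. This share may be too high, since 65.4% of the 75-base windows of Eno1 and 0% of those of Eno2 recur in other genes. Ldhb, the heart-type lactate dehydrogenase, held 60.5% of its pair in knockin Dex, 60.6% in knockin PBS, 60.3% in wild-type Dex and 60.5% in wild-type PBS libraries. The Ldhb share may be too low, since 16.7% of the windows of Ldhb and 5.38% of those of Ldha recur in other genes. In all 4 of these families the Dex and PBS libraries overlapped in both genotypes. The phosphorylases and the pyruvate dehydrogenase kinases, given further on, were the families in which a share did not overlap between Dex and PBS.

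Counting left out read pairs that match more than 1 gene, and several of these genes have processed copies. Of the 75-base windows of the main transcript, 80.3% of Gapdh recur in another gene (121 genes in all), 67.5% of Pgk1, 65.4% of Eno1, 40.6% of Pgam1 and 37% of Mpc1. The TPM of these 5 genes is therefore uncertain and may be too low, and so is their place in the order of levels. To a lesser degree this holds for Pfkfb2 (24.3%), Pdhb (19.9%), Pkm (19.6%), Ldhb (16.7%), Gpi1 (14.8%) and Pdha1 (13.9%). Pygm, Pygb, Pdk2, Dlat and Hk2 were among the 17 members with no such window, and Pdk4 had 0.616%. Pfkp shared 16.6% of its windows with Pitrm1. A second identifier that also carries the symbol Aldoa held only 1.41 CPM on average and is not included.

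In knockin mice 4 of the 35 genes rose with Dex and 1 fell, against 5.28% of all tested genes called higher and 4.71% called lower. Those that rose were Pygm, Pdk2, Dlat and Pfkp, and Pygb fell. In wild-type mice 4 rose and 1 fell, against 5.27% of all tested genes called higher and 3.94% called lower. Those that rose were Pygm, Pdk2, Dlat and Gapdh, and again Pygb fell. In the average of both genotypes 6 rose and 1 fell, against 9.79% called higher and 8.41% called lower: Pygm, Pdk4, Pdk2, Dlat, Pfkp and Gapdh rose and Pygb fell. As shares of the 35, the risers were 11.4% in each genotype and 17.1% in the average, and the 1 gene that fell was 2.86% each time. With so few genes behind these shares, each is a count and not a property of the set.

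Most changes were small. The median log2 fold change (Dex over PBS) of the 35 genes was 0.020 in knockin and 0.019 in wild-type mice, against 0.002 and -0.001 over all tested genes. The median size without sign was 0.055 in knockin and 0.044 in wild-type mice, against 0.090 and 0.088 over all tested genes. These medians were not matched for level: the tested genes were filtered at a minimum count of 10, while no member was below 95 in any library. The direction was the same in both genotypes, which share no library, for 26 of the 35 (74.3%) and for 70.2% of the other 18613 tested genes. Of the genes not called, 25 of 30 in knockin and 26 of 30 in wild-type mice had a 95% interval that lay within ±0.25 on the log2 scale, a change of at most 1.19-fold.

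**Figure D2:**
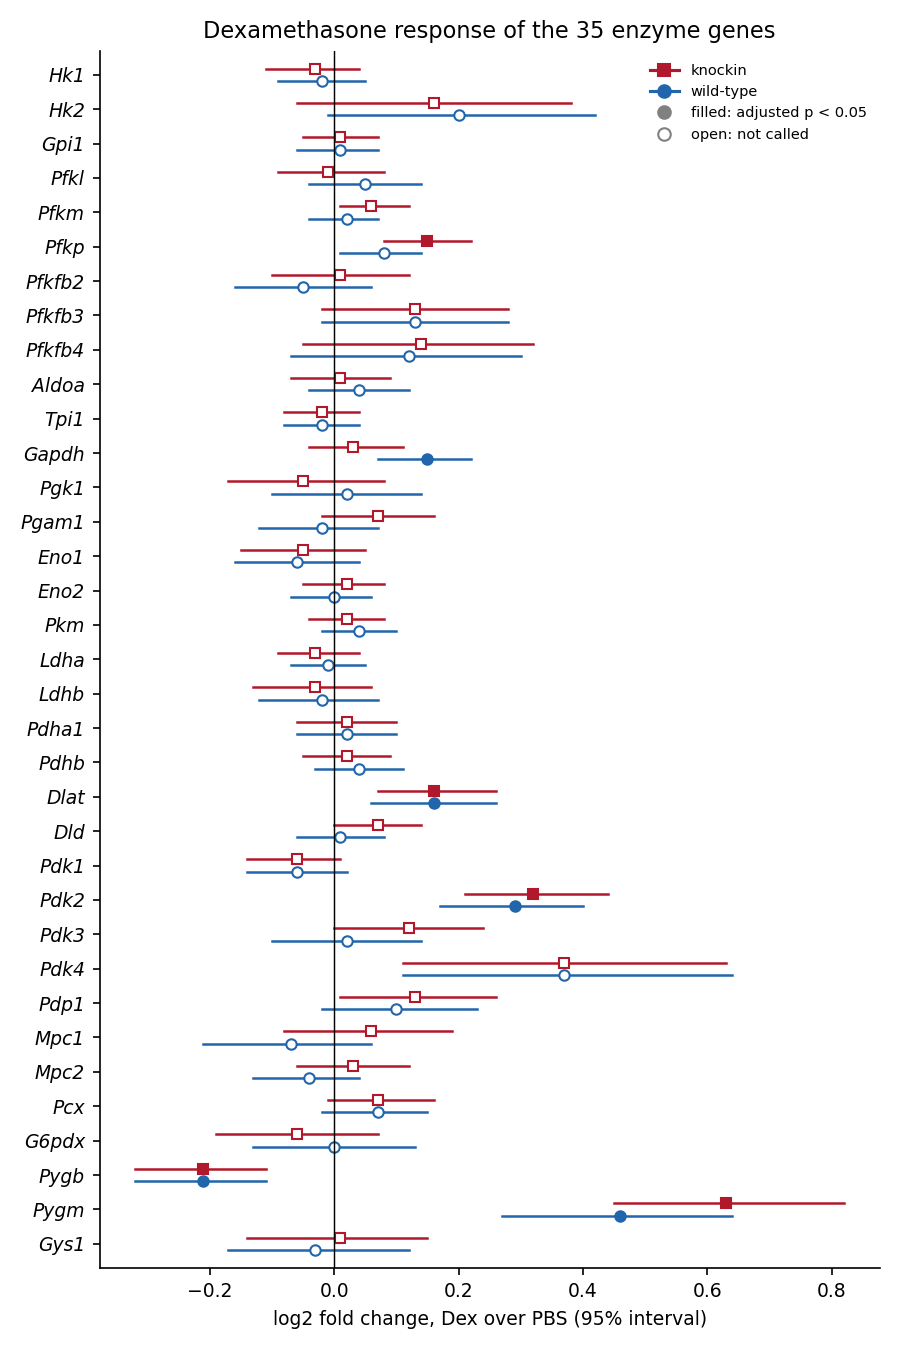
Log2 fold change of Dex over PBS with its 95% interval for each of the 35 genes, in knockin (squares) and wild-type (circles) mice, filled where the adjusted p was below 0.05. Most points lie near 0, while Pygm, Pdk2 and Dlat lie to the right and Pygb to the left in both genotypes.

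Glycogen held the changes furthest from 0 in both directions. Pygm (chr19:6434429-6448489, plus strand, mm39) encodes the muscle form of glycogen phosphorylase, which in brain is known from astrocytes. It stood at 26.2, 28.2, 29.9, 33.4 and 29.7 CPM in the knockin Dex libraries, against 20.2, 17.2, 16, 21.2 and 20.1 CPM in the knockin PBS libraries. In wild-type mice it stood at 26.8, 28.6, 28.7, 26.5 and 30.3 CPM with Dex, against 21.9, 23.8, 16.6, 22.2 and 18.9 CPM with PBS. Every Dex library lay above every PBS library of its genotype. The rise was 0.63 ± 0.09 on the log2 scale (SE; 1.55-fold, adjusted p = 2.04e-05) in knockin and 0.46 ± 0.09 (1.37-fold, adjusted p = 0.00114) in wild-type mice. The 2 rises differed by 0.18 ± 0.13 (95% interval -0.08 to 0.44, adjusted p = 1.0 by edgeR), so a difference between genotypes was not shown.

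Pygb (chr2:150628655-150673678, plus strand, mm39), the brain form of the same enzyme and the more abundant of the pair, moved the other way. It stood at 247, 224, 217, 263 and 227 CPM in the knockin Dex libraries, against 278, 257, 250, 299 and 281 CPM in the knockin PBS libraries. The wild-type Dex libraries held 229, 223, 247, 230 and 248 CPM, against 285, 283, 262, 266 and 266 CPM in the wild-type PBS libraries. The wild-type groups did not overlap, while in knockin mice Dex replicate 4 lay above 2 of the PBS libraries. It fell by 0.21 ± 0.05 on the log2 scale in each genotype (0.864-fold in knockin, adjusted p = 0.00626, and 0.863-fold in wild-type, adjusted p = 0.00653). Without wild-type PBS replicates 1 and 2 together, chosen for their liver transcripts in earlier results, the wild-type fall was -0.18 with adjusted p = 0.0577.

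The make-up of the phosphorylases changed accordingly, although Pygb stayed the main form by far. Pygm was 14.2% ± 1.13 of phosphorylase messenger (Pygb, Pygm and the liver form Pygl, in TPM) in knockin Dex and 8.44% ± 0.42 in knockin PBS libraries, and 13.8% ± 0.526 in wild-type Dex and 9.16% ± 0.976 in wild-type PBS libraries (SD, n = 5 each). The lowest Dex share was 12.3% in knockin and 13.3% in wild-type mice, above the highest PBS share of 8.78% and 10.1%. Gys1, the brain's glycogen synthase, stood at 17.3 ± 1.49 CPM in knockin Dex, 17.2 ± 1.06 in knockin PBS, 17.6 ± 1.92 in wild-type Dex and 17.9 ± 1.04 in wild-type PBS libraries. Its log2 fold changes, 0.01 in knockin and -0.03 in wild-type mice, did not pass the test.

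Among the pyruvate dehydrogenase kinases, Pdk2 and Pdk4 were higher with Dex. Each of the 4 kinases phosphorylates and thereby inhibits pyruvate dehydrogenase. Pdk2 (chr11:94917084-94932180, minus strand, mm39), the most abundant of them here, stood at 124, 125, 125, 150 and 131 CPM in the knockin Dex libraries, against 107, 99.5, 94.4, 117 and 106 CPM in the knockin PBS libraries. In wild-type mice it stood at 134, 135, 129, 125 and 125 CPM with Dex, against 112, 110, 96.1, 104 and 110 CPM with PBS. Again no Dex library lay as low as a PBS library of its genotype. Pdk2 rose by 0.32 ± 0.06 on the log2 scale (SE; 1.25-fold, adjusted p = 0.000206) in knockin and by 0.29 ± 0.06 (1.22-fold, adjusted p = 0.000948) in wild-type mice.

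Pdk4 (chr6:5483351-5496309, minus strand, mm39), a known receptor target in other tissues, was the least abundant kinase and varied most between mice. It stood at 16.7, 21.6, 17.1, 24 and 17.9 CPM in the knockin Dex libraries, against 14.7, 14.2, 17.6, 16.5 and 11.3 CPM in the knockin PBS libraries. The wild-type Dex libraries held 22, 19.7, 14.7, 20.3 and 17.3 CPM, against 14.5, 12.7, 16.8, 13.6 and 14.2 CPM in the wild-type PBS libraries. The Dex and PBS libraries overlapped in both genotypes. Its log2 fold change was 0.37 ± 0.13 in each genotype and did not pass the test there (adjusted p = 0.0706 in knockin and 0.0775 in wild-type mice). Over both genotypes it rose by 0.37 ± 0.09 (1.29-fold, adjusted p = 0.00509). The call within a genotype changed with the tool and with single libraries. With all libraries the DESeq2 Wald test called it in both genotypes (adjusted p = 0.0232 in knockin and 0.0253 in wild-type mice), and edgeR on the compared libraries alone did so in wild-type mice (0.0406). Without wild-type Dex replicate 3 the adjusted p was 0.0405 in knockin and 0.0181 in wild-type mice, without knockin Dex replicate 1 it was 0.0405 in knockin mice, and without knockin Dex replicate 4 it was 0.0456 in wild-type mice.

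Pdk1 and Pdk3 did not pass the test. Pdk1 had a log2 fold change of -0.06 in each genotype, and Pdk3 had 0.12 in knockin and 0.02 in wild-type mice. As a share of the 4 kinases in TPM, Pdk2 held 63.1% ± 1.54 in knockin Dex and 59.4% ± 1.7 in knockin PBS libraries, and 63.5% ± 1.95 in wild-type Dex and 59.4% ± 1.7 in wild-type PBS libraries. Pdk1 held 12.9% ± 0.745 in knockin Dex and 15.9% ± 1.12 in knockin PBS libraries, and 12.8% ± 0.624 in wild-type Dex and 15.2% ± 1.06 in wild-type PBS libraries. The phosphatase that reverses the kinases' action, Pdp1, stood at 58.1 CPM in knockin Dex and 52.8 in knockin PBS, and at 57.1 in wild-type Dex and 53.3 in wild-type PBS libraries, which did not pass the test (log2 fold change 0.13 in knockin and 0.10 in wild-type mice).

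**Figure D3:**
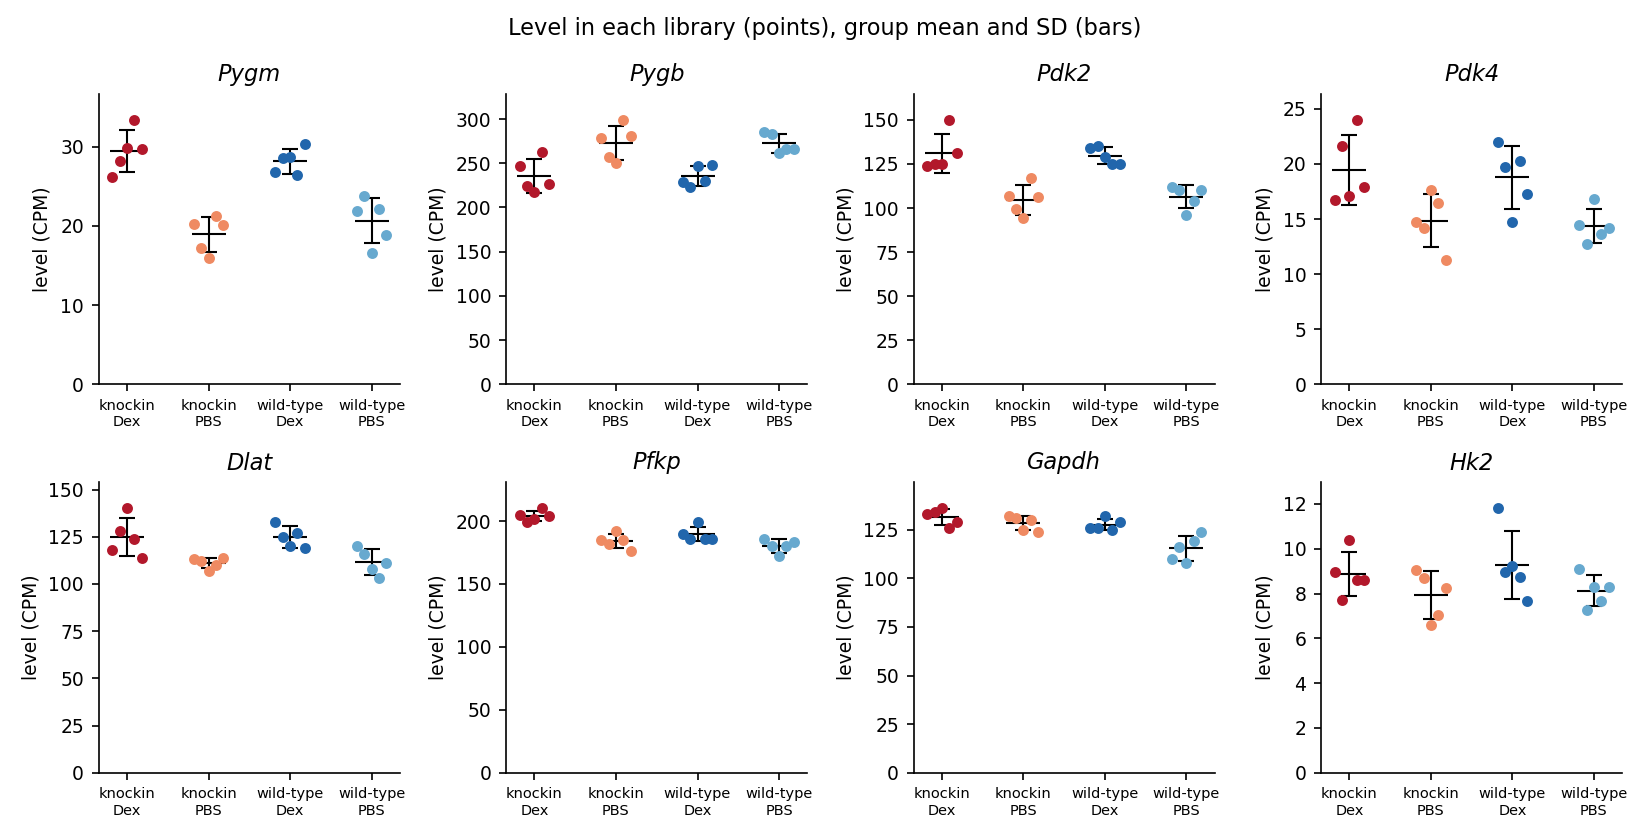
CPM of 8 genes in each of the 20 libraries (points) with group mean and SD (bars), axes from 0. The Dex libraries of Pygm and Pdk2 all lie above the PBS libraries of the same genotype, Pygb is lower with Dex, and Pdk4, Dlat and Hk2 overlap.

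Of the pyruvate dehydrogenase complex itself, only Dlat, the acetyltransferase core, was called. Dlat (chr9:50545933-50571080, minus strand, mm39) stood at 118, 128, 140, 124 and 114 CPM in the knockin Dex libraries, against 113, 112, 107, 110 and 114 CPM in the knockin PBS libraries. In wild-type mice it stood at 133, 125, 120, 127 and 119 CPM with Dex, against 120, 116, 108, 103 and 111 CPM with PBS. The groups touched or overlapped in both genotypes. The rise was 0.16 ± 0.05 on the log2 scale (1.12-fold) in each genotype, with an adjusted p of 0.0255 in knockin and 0.0331 in wild-type mice, and 0.000848 for the average of both genotypes. Within a genotype the call was not stable. In knockin mice it was lost under limma-voom on all libraries (adjusted p = 0.0628) and in edgeR on the compared libraries alone (0.0504). For wild-type mice it was lost without PBS replicate 3, 4 or 5 (adjusted p = 0.107, 0.106 and 0.071) or without Dex replicate 1, 2 or 4 (0.11, 0.0645 and 0.0758). Among single libraries, the knockin call was lost without PBS replicate 3 (0.0787) or Dex replicate 2 or 3 (0.0702 and 0.114).

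The other subunits did not pass the test. Pdha1 and Pdhb, which form the decarboxylase, and Dld, the dehydrogenase shared with other complexes, had log2 fold changes of 0.02, 0.02 and 0.07 in knockin mice and 0.02, 0.04 and 0.01 in wild-type mice. Mpc1 and Mpc2, the subunits of the mitochondrial pyruvate carrier, had 0.06 and 0.03 in knockin and -0.07 and -0.04 in wild-type mice. Pcx, pyruvate carboxylase, which in brain is known mainly from astrocytes and feeds pyruvate into oxaloacetate, had 0.07 in each genotype. G6pdx, the entry enzyme of the pentose phosphate pathway, had -0.06 in knockin and 0.00 in wild-type mice.

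From hexokinase to lactate dehydrogenase, 15 of 16 trunk enzymes in each genotype did not pass the test. The exception was Pfkp in knockin and Gapdh in wild-type mice. That is 6.25% of the 16 called higher, near the 5.28% of all tested genes in knockin and 5.27% in wild-type mice. Hk2 is the only trunk gene not called whose 95% interval reached past ±0.25 on the log2 scale. It stood at 8.97, 7.73, 10.4, 8.59 and 8.62 CPM in the knockin Dex libraries, against 9.04, 8.68, 6.58, 7.05 and 8.27 CPM in the knockin PBS libraries. The wild-type Dex libraries held 11.8, 8.95, 9.22, 8.75 and 7.69 CPM, against 9.11, 7.26, 8.29, 7.69 and 8.28 CPM in the wild-type PBS libraries. The groups overlapped, and log2 fold changes of 0.16 (95% interval -0.06 to 0.38, adjusted p = 0.433) in knockin and 0.20 (-0.01 to 0.42, adjusted p = 0.295) in wild-type mice did not pass the test. Its counts were the lowest of the set and its spread between mice the second largest, and the intervals within each genotype include changes in either direction. In the average of both genotypes Hk2 had 0.18 (95% interval 0.03 to 0.33, adjusted p = 0.0999 by edgeR) and was not called.

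Pfkp (chr13:6629804-6698813, minus strand, mm39), the platelet-type phosphofructokinase, stood at 205, 199, 202, 210 and 204 CPM in the knockin Dex libraries, against 185, 182, 192, 185 and 176 CPM in the knockin PBS libraries. In wild-type mice it stood at 190, 186, 199, 186 and 186 CPM with Dex, against 186, 180, 172, 180 and 183 CPM with PBS. The knockin groups lay clearly apart. The wild-type groups did not overlap either, but lay so close that both reach 186 CPM when rounded. The rise in knockin mice was 0.15 ± 0.03 on the log2 scale (1.11-fold, adjusted p = 0.00192). In wild-type mice the log2 fold change was 0.08 ± 0.03 with adjusted p = 0.159, and the 2 responses differed by 0.07 ± 0.05 (adjusted p = 1.0 by edgeR), so they were not shown to differ. Pfkl and Pfkm, the liver and muscle types, had log2 fold changes of -0.01 and 0.06 in knockin and 0.05 and 0.02 in wild-type mice and were not called.

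The bifunctional enzymes Pfkfb2, Pfkfb3 and Pfkfb4 set the level of fructose 2,6-bisphosphate, the activator of phosphofructokinase. Pfkfb3 stood at 42.2 ± 4.3 CPM in knockin Dex and 38.3 ± 3.87 in knockin PBS, and at 41.8 ± 3.59 in wild-type Dex and 38.1 ± 1.53 in wild-type PBS libraries. Its log2 fold change was 0.13 in each genotype and 0.13 in the average (adjusted p = 0.081), and it was not called. Pfkfb4 had 0.14 in knockin and 0.12 in wild-type mice, and Pfkfb2 had 0.01 in knockin and -0.05 in wild-type mice. Neither was called.

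Gapdh (chr6:125138816-125143430, minus strand, mm39), glyceraldehyde phosphate dehydrogenase, is often used as a reference gene. It stood at 133, 134, 136, 126 and 129 CPM in the knockin Dex libraries, against 132, 131, 125, 130 and 124 CPM in the knockin PBS libraries. The wild-type Dex libraries held 126, 126, 132, 125 and 129 CPM, against 110, 116, 108, 119 and 124 CPM in the wild-type PBS libraries. The wild-type PBS libraries were the low ones, and the other 3 groups overlapped. Its rise in wild-type mice was 0.15 ± 0.04 on the log2 scale (1.11-fold, adjusted p = 0.00731). In knockin mice the log2 fold change was 0.03 ± 0.04 (adjusted p = 0.671). The responses differed by -0.11 ± 0.05 (unadjusted p = 0.0338, adjusted p = 1.0 by edgeR), which did not pass the test. Without wild-type PBS replicates 1 and 2 together the wild-type value was 0.12 with adjusted p = 0.075, and the copies of Gapdh named above limit what its counts can show.

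Pkm, the pyruvate kinase and the second most abundant member, shows how narrow the rest lay. It stood at 855, 829, 859, 864 and 858 CPM in the knockin Dex libraries, against 840, 872, 816, 828 and 856 CPM in the knockin PBS libraries. In wild-type mice it stood at 848, 850, 877, 835 and 851 CPM with Dex, against 816, 839, 792, 837 and 870 CPM with PBS. The groups overlapped, and the log2 fold change was 0.02 (95% interval -0.04 to 0.08, adjusted p = 0.81) in knockin and 0.04 (-0.02 to 0.10, adjusted p = 0.549) in wild-type mice. In knockin mice Aldoa had 0.01, Tpi1 -0.02, Eno2 0.02, Eno1 -0.05, Pgk1 (phosphoglycerate kinase) -0.05 and Pgam1 (phosphoglycerate mutase) 0.07. In wild-type mice Aldoa had 0.04, Tpi1 -0.02, Eno2 -0.00, Eno1 -0.06, Pgk1 0.02 and Pgam1 -0.02. Hk1 had -0.03 in knockin and -0.02 in wild-type mice, and Gpi1 (glucose phosphate isomerase) had 0.01 in each genotype. The lactate dehydrogenases, which interconvert pyruvate and lactate, had -0.03 (Ldha) and -0.03 (Ldhb) in knockin and -0.01 and -0.02 in wild-type mice. None of these was called.

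No member was called between genotypes. Under Dex, knockin against wild-type gave 0 called genes of 18648 (0% of all tested), under PBS 0 (0%), and the difference of the Dex responses 0 (0%), all by edgeR. At an unadjusted p below 0.05 there were 828, 673 and 527 genes over the whole table, of which 1, 2 and 1 were members. DESeq2 gave 698, 586 and 424 and limma-voom 1072, 610 and 609 at that level, and neither called a gene after adjustment. On the compared libraries alone, edgeR called 1 gene under Dex, lower in knockin mice and not a member. Of the members with an unadjusted p below 0.05 in the edgeR fit to all libraries, the one under Dex was Pfkp. It had 0.10 ± 0.03 on the log2 scale, knockin over wild-type. Under PBS they were Gapdh at 0.16 ± 0.04 (adjusted p = 0.833), with no overlap between the knockin PBS and wild-type PBS libraries, and Mpc2 at -0.09 ± 0.04. For the difference of the responses it was Gapdh, given above. The 95% interval lay within ±0.25 for 33 of 35 genes under Dex and for 32 of 35 under PBS. For the difference of the responses it did so for 28 of 35, with the widest reach at -0.38 for Pdk4 and 0.44 for Pygm, so a moderate genotype difference in those genes was not detectable here.

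The rest of glucose metabolism was read through 79 further genes, 73 of which passed the filter. With Dex 6 rose and 7 fell in knockin mice, 6 rose and 8 fell in wild-type mice, and 10 rose and 8 fell in the average of both. As shares of the 73, that is 8.22% higher and 9.59% lower in knockin mice, against 5.28% and 4.71% of all tested genes. In wild-type mice it is 8.22% higher and 11% lower, against 5.27% and 3.94%, and in the average 13.7% higher and 11% lower, against 9.79% and 8.41%. In the average of both, the median size of their log2 fold changes was 0.080, against 0.030 for the 35 enzymes and 0.076 for all tested genes, again not matched for level. Among 14 genes of glucose and lactate transport 3 rose and 3 fell in each genotype, 21.4% each way. Slc2a1 (GLUT1, the glucose carrier of the blood-brain barrier and of astrocytes) stood at 144 to 223 CPM in knockin Dex and 69.6 to 82.6 in knockin PBS, and at 128 to 221 in wild-type Dex and 72.5 to 84.2 in wild-type PBS libraries. It rose by 1.25 ± 0.15 on the log2 scale (adjusted p = 1.9e-05) in knockin and 1.18 ± 0.15 (adjusted p = 4.24e-05) in wild-type mice. Slc2a4 (GLUT4, the insulin-responsive carrier) rose by 1.33 ± 0.19 in knockin and 1.14 ± 0.18 in wild-type mice and stayed low, at most 2.92 CPM in any library. Slc2a13, a myo-inositol carrier, rose by 0.18 in knockin and 0.17 in wild-type mice, a call lost in wild-type mice without PBS replicate 5 (adjusted p = 0.0631) or Dex replicate 1 (0.0527).

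The transport genes that fell were Slc16a1, Bsg and Slc2a10. Slc16a1 (MCT1, which carries lactate and pyruvate) stood at 30.1 to 42.1 CPM in knockin Dex and 55.8 to 67.3 in knockin PBS, and at 26.5 to 41 in wild-type Dex and 54.3 to 68.8 in wild-type PBS libraries. Its log2 fold change was -0.80 ± 0.11 (adjusted p = 4.09e-05) in knockin and -0.85 ± 0.11 (adjusted p = 3.02e-05) in wild-type mice, and its chaperone Bsg had -0.14 in knockin and -0.21 in wild-type mice. Slc2a10, a glucose carrier counted at 0.887 to 3.27 CPM over all libraries, had -0.89 in knockin and -0.88 in wild-type mice. The groups of Slc2a1 and of Slc16a1 did not overlap in either genotype. The summed CPM of 7 endothelial markers ran from 244 to 273 in knockin Dex, 247 to 293 in knockin PBS, 242 to 287 in wild-type Dex and 271 to 296 in wild-type PBS libraries. Of these 7, 1 was called higher and 3 lower in knockin mice, and 1 higher and 1 lower in wild-type mice. Of all tested genes, 5.28% were called higher and 4.71% lower in knockin mice, and 5.27% and 3.94% in wild-type mice. The part of endothelial cells in these values was not tested.

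Around the phosphorylases, 23 further genes of glycogen metabolism were tested, of which 3 rose and 2 fell in knockin and 2 rose and 2 fell in wild-type mice. In knockin mice that is 13% called higher and 8.7% lower, against 5.28% and 4.71% of all tested genes. In wild-type mice it is 8.7% each way, against 5.27% and 3.94%. Ugp2, which makes the UDP-glucose that glycogen synthase uses, fell to 71.7 ± 4.91 CPM in knockin Dex, against 103 ± 5.95 in knockin PBS, and to 67.9 ± 6.51 in wild-type Dex, against 104 ± 8.73 in wild-type PBS libraries (log2 fold change -0.52 in knockin and -0.61 in wild-type mice). Pgm1, the phosphoglucomutase that joins glycogen to glycolysis, rose by 0.24 in knockin and 0.26 in wild-type mice. Ppp1r3g, which brings protein phosphatase 1 to glycogen, rose by 1.04 ± 0.22 in knockin and 0.90 ± 0.21 in wild-type mice. It had 5.12 to 12.1 CPM in knockin Dex and 3 to 5.49 in knockin PBS, and 7.72 to 13.9 in wild-type Dex and 4.32 to 6.35 in wild-type PBS libraries. Phkg1, a catalytic subunit of the kinase that activates phosphorylase, fell by 0.32 in knockin and by 0.44 in wild-type mice. The other catalytic subunit tested was not called. The branching enzyme Gbe1 rose by 0.24 in knockin mice, a call lost without knockin PBS replicate 1 (adjusted p = 0.0534) or knockin Dex replicate 4 (0.0539), and had 0.02 in wild-type mice.

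Of 15 other isoenzymes of glycolysis and related enzymes, Tigar among them, none rose, while 1 fell in knockin (6.67%) and 2 in wild-type mice (13.3%). Of all tested genes, 4.71% were called lower in knockin and 3.94% in wild-type mice. Hk3, the hexokinase of blood and immune cells, stood at 0.86 to 1.22 CPM in knockin Dex and 1.75 to 2 in knockin PBS, and at 0.691 to 1.35 in wild-type Dex and 1.87 to 2.04 in wild-type PBS libraries (log2 fold change -0.92 in knockin and -0.89 in wild-type mice). The summed CPM of 7 microglial markers ran from 345 to 368 in knockin Dex, 384 to 431 in knockin PBS, 349 to 383 in wild-type Dex and 390 to 454 in wild-type PBS libraries, without overlap between Dex and PBS in either genotype. Of these 7, 3 were called lower in knockin mice, and 3 lower and 1 higher in wild-type mice, where 5.27% of all tested genes were called higher. The median log2 fold change of the 7 markers was -0.03 in knockin and 0.03 in wild-type mice, so the lower sums do not hold for the markers in general. The part of microglia in the Hk3 value was not tested. Tigar, a fructose bisphosphatase, fell by 0.15 in wild-type mice, a call lost when any 1 of 12 libraries was left out (wild-type PBS 1 to 4, wild-type Dex 1 to 3, knockin PBS 1 and knockin Dex 1, 2, 4 and 5; adjusted p up to 0.126), and had 0.00 in knockin mice. Pdp2, the second pyruvate dehydrogenase phosphatase, rose by 0.28 in wild-type mice, a call lost without wild-type Dex replicate 1 (adjusted p = 0.0587), and had 0.21 in knockin mice, which did not pass the test. In the average of both genotypes Pdp2 rose by 0.25, a call kept in all 28 alternatives run. Of 8 pentose phosphate genes only Tkt (transketolase) was called, 12.5% of the 8 in each genotype. It fell by 0.13 in knockin and by 0.15 in wild-type mice. Of 7 gluconeogenic and malic enzymes none was called.

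**Figure D4:**
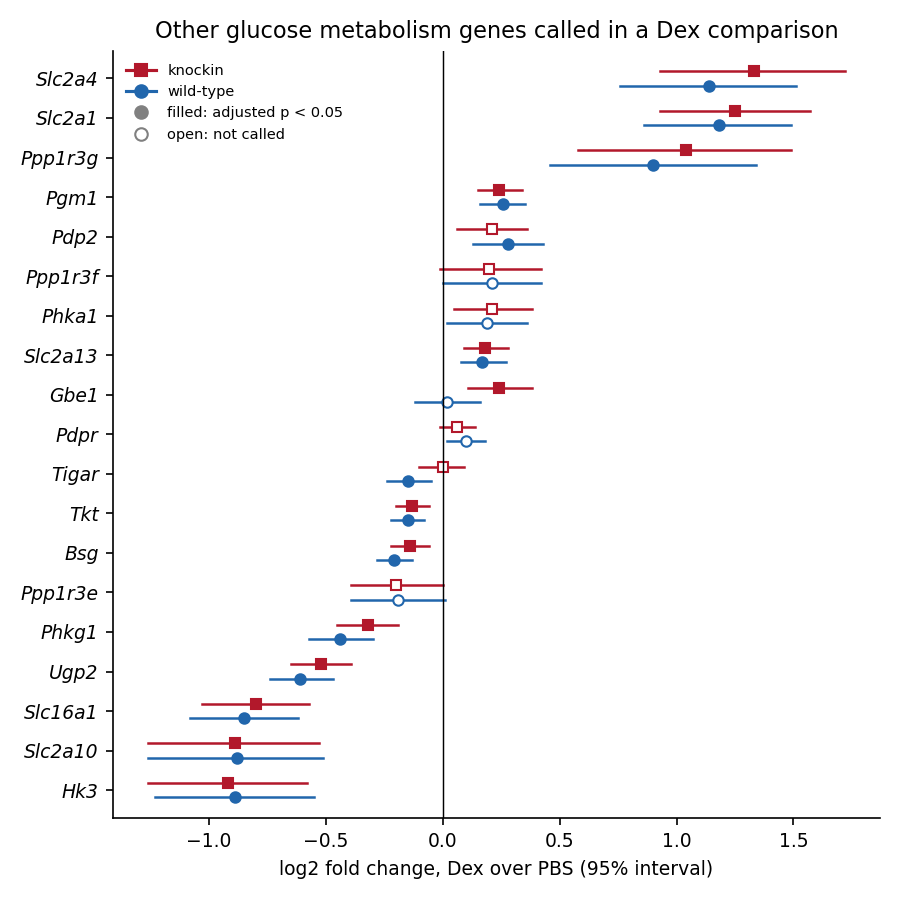
Log2 fold change of Dex over PBS with its 95% interval for the 19 further genes called in a Dex comparison, in knockin (squares) and wild-type (circles) mice, filled where called in that genotype. Slc2a4, Slc2a1 and Ppp1r3g lie near 1 and Hk3, Slc2a10 and Slc16a1 near -0.9, beyond any of the 35 enzymes.

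Markers of the hippocampus and its surroundings were read beside these values, and no marker on any list was at 0 in all libraries. Beside the marker calls below, 5.28% of all tested genes were called higher and 4.71% lower in knockin mice. In wild-type mice these shares were 5.27% and 3.94%. The 9 astrocyte markers summed to 6542 to 7145 CPM in knockin Dex, 6449 to 6865 in knockin PBS, 6470 to 6612 in wild-type Dex and 6450 to 6732 in wild-type PBS libraries, overlapping between Dex and PBS, with 3 of the 9 called higher and 1 lower in each genotype. The part of astrocytes in the Pygm and Pdk values was not tested. The 8 oligodendrocyte markers summed to 4858 to 5816 CPM in knockin Dex, 4872 to 6654 in knockin PBS, 3873 to 5613 in wild-type Dex and 5044 to 5547 in wild-type PBS libraries, with 2 called lower in knockin and 1 in wild-type mice. The 5 markers of oligodendrocyte precursors, 3 of them called higher in each genotype, summed to 218 to 251 CPM in knockin Dex, 190 to 223 in knockin PBS, 215 to 251 in wild-type Dex and 196 to 222 in wild-type PBS libraries. The 10 excitatory neuron markers summed to 7751 to 8943 CPM in knockin Dex, 7444 to 8970 in knockin PBS, 8136 to 8688 in wild-type Dex and 7722 to 8560 in wild-type PBS libraries, with none called in knockin and 1 called higher in wild-type mice. Choroid plexus markers ranged from 36.5 to 1789 CPM over all libraries, highest in wild-type PBS replicate 4. The 16 liver markers summed to 225 to 300 CPM in knockin Dex, 269 to 355 in knockin PBS, 175 to 313 in wild-type Dex and 269 to 555 in wild-type PBS libraries. Those other than Trf, which oligodendrocytes also express, reached 253 CPM in wild-type PBS replicate 1 and at most 62.3 CPM in the other groups. Pygm and Pdk2 rose and kept their calls in both genotypes without wild-type PBS replicates 1 and 2, and without wild-type PBS replicate 4 and knockin Dex replicate 2. In the second case Dlat was no longer called in knockin (adjusted p = 0.0585) or wild-type mice (0.119).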

How the data were processed

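Poly(A) RNA of hippocampus was sequenced as 75-base paired-end reads, with 1 library per mouse as the labels are read here. The authors deposited unnormalized read-pair counts for each gene, made with featureCounts 2.0.6 on the GENCODE M34 basic annotation, per the file headers, without strand and without multi-mapping pairs. The gene length, in bases, is a second deposited column, per the file headers, used here for TPM. The submitters' processing notes name STAR 2.5.1, mm39, Subread 1.5.1 and DESeq2 1.38.3. Because strand was ignored, overlapping genes cannot be told apart.

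Symbols came from a names table, which matched 51884 of 57126 identifiers. Unmatched identifiers held 0.264% to 0.337% of a library's counts. The counts went into edgeR 4.0.16 (R 4.3.3): filterByExpr (minimum count 10, minimum total 15), TMM scaling, and a robust quasi-likelihood fit of all 20 libraries with 1 term per group (16 residual degrees of freedom, biological coefficient of variation 7.08%). P-values were adjusted by Benjamini-Hochberg over 18648 genes, and intervals are 95%. Marker sums are CPM of the library total. The fit was tested on simulated data. Within-group library pairs (40) differed by a chi-square of 2.51 to 12.6 per gene, so none was a duplicate. The 35 genes, the lists and the rule that values by library are given for called members and for Pdk4, Hk2, Gapdh and Pkm were chosen with earlier results of these data known, and the liver sum without Trf after its values were seen. Alternatives were DESeq2 1.42.0 (size factors, Wald test), limma-voom (3.58.1), other count filters (none, or 50 counts in 5 libraries), the compared libraries alone, a replicate block and left-out libraries. Shared 75-base windows were searched in an older transcript set, used for names and letters alone.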

Additional observations from a re-analysis of the deposited data

Results flagged for a closer look

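In 10 of the 140 groups of 5 libraries examined (35 genes in 4 groups) the highest or lowest library stood apart from the other 4, with a gap above 0.71 of the group's range. Chance gives about 1 in 20. In knockin Dex replicate 3, Hk1 was at 464 CPM (next library 429) and Eno1 at 196 CPM (next 172). In knockin Dex replicate 2, Aldoa was at 1424 CPM (next 1545), Pkm at 829 CPM (next 855) and Pdhb at 77.8 CPM (next 73.6). In knockin Dex replicate 4, Pdk2 was at 150 CPM (next 131). In knockin PBS libraries, Ldha was at 210 CPM in replicate 2 (next 195) and Pdp1 at 59.5 CPM in replicate 4 (next 52.4). In wild-type Dex replicate 1, Hk1 was at 451 CPM (next 435), and in wild-type PBS replicate 3, Gys1 was at 16.1 CPM (next 18.1). Pdk2 stayed called in knockin mice without that library, and without knockin PBS replicate 4 Pdp1 was called higher in knockin mice.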

How the results depend on the processing

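Up to 29 alternatives were run, 20 of which left out 1 library each. The 17 calls of single enzyme genes gave 486 values, of which 470 stayed called, 16 lost the call and 0 changed direction. The calls of Pygm, Pdk2 and Pfkp, and of Pygb in knockin mice and in the average, were kept in all alternatives run. So were those of Dlat and Pdk4 in the average. Without wild-type PBS replicates 1 and 2 together, 0 enzymes were called lower in wild-type mice (1 in the fit to all libraries) and 2 in the average (Pdk1 added). Ordered by CPM in place of TPM, 6 of 7 isoenzyme families kept their order, Pdk1 and Pdk3 changing places. Leaving out 1 library gave 3 to 5 enzymes called higher in each genotype. With the replicate numbers as a block, 4 rose and 1 fell in wild-type mice, as without it. The numbers share no stated origin, and of 30 same-numbered library pairs 5 correlated over 0.1. The median correlation was 0.0151 for same-numbered pairs (highest 0.249) and -0.00551 for pairs with different numbers. In the average, Hk2, Pfkfb3, Pdp1 and Pdk1 were called in 1, 4, 5 and 1 alternatives. Pdp1 was also called in 1 alternative in each genotype. Calls of Gbe1, Pdpr, Ppp1r3e and Ppp1r3f in the average were lost in 22, 16, 17 and 21 of 28. The lowest counts of the set were those of Hk2.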
